A study of Mus musculus with 8 samples.

Results

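The genes described here are the calcium handling genes of the cardiomyocyte, chosen by name: Atp2a2, Pln, Sln, Ryr2, Trdn, Casq2, Hrc, Jph2, Cacna1c and Slc8a1. All 10 were found among the 30445 rows of the deposited gene table, and all 10 were among the 17787 genes tested. RNA was sequenced from hearts of C57 mice that had lived for 8 weeks with transverse aortic constriction, in which a tie around the aorta makes the left ventricle pump against raised pressure. The 4 wildtype libraries and the 4 libraries labelled Mertk knockdown were all from operated mice, and unoperated hearts were not analysed here. The labels give neither the means of the Mertk knockdown nor the cells it was aimed at, the part of the heart that was taken, the age of the mice, or whether the replicates are different mice. The p-values accordingly refer to library-to-library spread, which may be technical.

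In each heartbeat, calcium enters the cardiomyocyte through the L-type channel and triggers a larger release from the sarcoplasmic reticulum, the cell's internal calcium store, through the ryanodine receptor. The muscle relaxes when the pump SERCA2a returns calcium to the store and the sodium-calcium exchanger carries the rest out of the cell. In failing hearts a lower level of the pump and a higher level of the exchanger are often described, so these genes are common readouts of pressure overload.

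None of the 10 calcium handling genes passed an adjusted p under 0.05 in either direction (edgeR, quasi-likelihood test: 0 higher, 0 lower), a threshold that 0.647% of all tested genes passed, 0.275% with higher and 0.371% with lower values in the labelled group. At an unadjusted p under 0.05 there was 1, Atp2a2, the gene of the SERCA2 pump, with the higher value in the labelled group, and among all tested genes 12.4% had such a p, 6.11% counting that direction only. DESeq2 called 1 of the 10, also Atp2a2, against 3.73% of the 16206 genes to which it gave an adjusted p (1.65% with higher and 2.07% with lower values). Limma on the deposited FPKM, as log2(FPKM + 1), called 0 of the 10, against 57 of all 17787 tested genes. The log2 fold change is always given as labelled Mertk knockdown minus wildtype. It was above 0 for 9 of the 10 genes, 8 of the 9 without Sln, and 49.9% of all tested genes. Its median was 0.15 over the 10 genes, 0.12 without Sln, whose fitted value is not reliable, and 0.00 over all tested genes. Over 10 marker genes of cardiomyocytes the median was 0.17. For Atp2a2 alone the groups were fully apart, which held for 8.07% of all tested genes, 4.18% with all labelled values above and 3.9% with all below. With the hepatocyte or the atrial marker score as a covariate 0 of the 10 genes were called by edgeR in either fit, against 0.0675% and 0.332% of all tested genes.

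The total counts ran from 59287621 to 71571173 per library, and the 10 genes took 1.39% to 1.96% of them. Mertk itself, the targeted gene, did not have lower values in the libraries that carry the knockdown label. It stood at 11.05 ± 0.870 CPM in wildtype against 11.86 ± 0.951 CPM under the label (SD over 4 libraries each), where CPM is the count scaled to a common library total. Its log2 fold change was 0.10 (SE 0.11, edgeR adjusted p = 0.766), so every direction given here is that of the labels. Markers of ventricular muscle (Myl2, Myl3, Irx4 and Hey2) summed to 6301 to 8309 CPM in wildtype and 7910 to 9082 CPM in the labelled group. Hepatocyte markers (9 genes, among them Alb) gave sums of 131 to 207 CPM under the label, 203 CPM in wildtype replicate 1 and only 1.06 to 6.85 CPM in the other wildtype libraries. The atrial muscle transcripts Sln, Myl4 and Myl7 stood out in wildtype replicates 3 and 4 and in labelled replicate 4, as described with Sln. Of the 9 listed atrial markers, Myl7, Myl4, Sbk2, Stard10, Kcnj3 and Dkk3 were highest in those 3 libraries. Nppa, Bmp10 and Nr2f1 did not follow that split. The list summed to 894, 1158 and 2083 CPM in those 3 libraries. The sum was highest in wildtype replicate 2, at 2376.5 CPM, where Nppa alone was at 2308 CPM.

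The pump has a pair of small membrane inhibitors in muscle, phospholamban from Pln and sarcolipin from Sln. Their open reading frames are shown because Pln was among the most abundant of the 10 transcripts in every library while Sln had no counts in 4 of the 8. Pln lies on mm10 at chr10:53337667-53345987 on the plus strand, and its reading frame of 159 bases, which encodes 52 residues, at chr10:53343864-53344022. Sln lies at chr9:53850164-53854560 on the plus strand, and its reading frame of 96 bases, which encodes 31 residues, at chr9:53853473-53853568. Both sequences were read 5′ to 3′ from GENCODE M21 transcripts and include the stop codon. The capitals mark the longest run of bases that both share.
Pln: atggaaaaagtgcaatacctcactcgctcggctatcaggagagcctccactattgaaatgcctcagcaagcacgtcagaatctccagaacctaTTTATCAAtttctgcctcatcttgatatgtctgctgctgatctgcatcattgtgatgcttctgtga
Sln: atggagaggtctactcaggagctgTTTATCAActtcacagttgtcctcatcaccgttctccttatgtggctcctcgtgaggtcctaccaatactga
The shared run is 8 bases long.

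Atp2a2, which encodes the SERCA2 pump (chr5:122453513-122502174, minus strand), had the largest log2 fold change of the 10 genes. The wildtype libraries held 7893, 6230, 7937 and 8181 CPM in replicates 1 to 4, and the labelled knockdown libraries 10340, 11471, 9296 and 9559 CPM. Every labelled library lay above every wildtype library, and wildtype replicate 2 lay apart below the other wildtype libraries. Means were 7560 ± 896 CPM for wildtype and 10166 ± 976 CPM for the label (SD over 4 libraries each). The fitted level was 1.34-fold that of wildtype (95% interval 1.11 to 1.62; log2 fold change 0.43, SE 0.12), and the adjusted p over all genes was 0.185 by edgeR and 0.0244 by DESeq2. Over all alternatives by edgeR, limma and DESeq2 the log2 fold change stayed between 0.35 and 0.56, the adjusted p ran from 0.0244 to 0.604, and DESeq2 was the only one under 0.05.

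Levels of other marker lists are set beside Atp2a2 here, and edgeR called 0 genes of each. Groups were fully apart for 8.07% of all tested genes. The 10 cardiomyocyte markers summed to 38739 to 51635 CPM in wildtype and 51432 to 60991 CPM in the labelled group. The sums overlapped only in that labelled replicate 4 lay just below wildtype replicate 4, and the median log2 fold change was 0.17. The members differed in direction. Myh6, which encodes the adult myosin motor, averaged 10816 ± 3530 CPM for wildtype against 18093 ± 1910 CPM for the label (SD, n = 4). Actc1 averaged 5315 ± 2130 against 7882 ± 545 CPM, and the groups were apart for both genes. Tnnt2 and Actn2 had log2 fold changes of -0.12 and -0.06. The 5 genes of the load list summed to 10009 to 16920 CPM in wildtype and 5268 to 10868 CPM in the labelled group. That sum was mostly Myh7, the fetal myosin motor, at 8115 ± 3050 and 2704 ± 2330 CPM, and Ankrd1, at 3765 ± 1130 and 2007 ± 127 CPM. The groups were apart for Ankrd1. Nppa, whose groups overlapped, had a log2 fold change of -0.795, the median of the list. Nppb and Acta1 had 0.00 and 0.25. Endothelial markers (6 genes) summed to 605 to 703 CPM in wildtype and 675 to 806 CPM under the label. The groups were apart for Kdr and Cdh5 (log2 fold changes 0.68 and 0.40), while Flt1 and Pecam1 had -0.25 and 0.05. Macrophage markers (6 genes) summed to 103 to 167 CPM in wildtype and 86.7 to 104 CPM under the label, with a median log2 fold change of -0.50 and the groups apart for C1qb. Their part in the Atp2a2 values was not tested. In bulk tissue a different number of cardiomyocytes and a different amount of RNA per cell cannot be told apart. With the hepatocyte marker score as a covariate the log2 fold change of Atp2a2 was 0.39, and among the 5 libraries with hepatocyte transcripts, which include only wildtype replicate 1, it was 0.37. Without the 3 libraries that held atrial transcripts it was 0.56.

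Pln (phospholamban), which restrains the pump until it is phosphorylated, showed no such separation. The wildtype libraries held 4657, 3194, 4690 and 3877 CPM and the labelled libraries 4342, 4371, 4584 and 4518 CPM. The labelled libraries lay inside the wildtype range and close together, with a coefficient of variation of 2.60% against 17.4% in wildtype. Fitted, the log2 fold change was 0.12 (95% interval -0.18 to 0.41, edgeR adjusted p = 0.788), and the 95% interval of the fold was 0.885 to 1.33. It was 0.02 without wildtype replicate 2, -0.10 with the hepatocyte score as a covariate and -0.06 among the 5 libraries with hepatocyte transcripts. On the opposite strand, Gm47644 shares 1644 exon bases with Pln in GENCODE M21. Its row held 2055 to 7619 counts per library, against 211693 to 307891 for Pln, and the sources used here do not give the strand setting of the authors' counting.

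**Figure D1:**
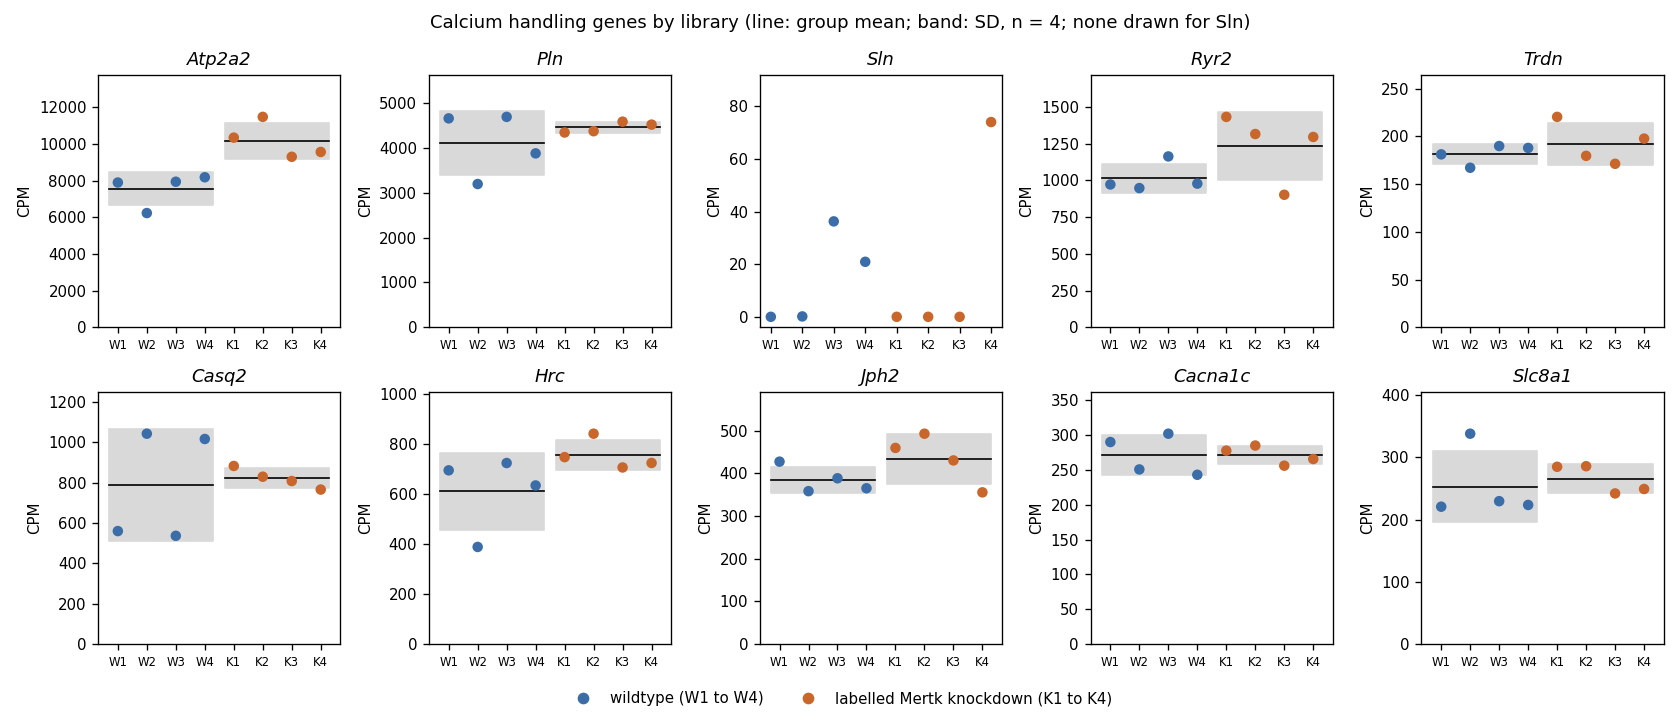
Normalised counts (CPM, vertical axis from 0 in all panels but Sln) of the 10 genes in each library, with wildtype libraries W1 to W4 in blue and labelled Mertk knockdown libraries K1 to K4 in orange. Lines are group means and bands the SD (n = 4), left out for Sln. Atp2a2 is the panel in which all labelled libraries (9296 to 11471 CPM) lie above all wildtype libraries (6230 to 8181 CPM).

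Sln (sarcolipin) is an atrial gene in the mouse heart, and it separated libraries of both groups rather than the groups. Its row held 0, 10, 2091 and 1540 counts in wildtype replicates 1 to 4 and 0, 0, 0 and 5046 counts in the labelled knockdown replicates. Scaled, the libraries above a handful of counts were wildtype replicate 3 at 36.28 CPM, wildtype replicate 4 at 20.91 CPM and labelled replicate 4 at 74.04 CPM. The level of 3 counts, which a library at 0 could still hold, was at most 0.0520 CPM in any library and covers counting error only. Labelled replicate 4 was at least 1420-fold higher than that level. With such values the group comparison was void: the 95% interval of the log2 fold change ran from -5.88 to 6.62 (edgeR adjusted p = 0.976).

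The genes whose log2 CPM followed Sln most closely over the 8 libraries, among 7724 genes that averaged 10 CPM or more, were Myl4, Myl7, Mybphl and Dkk3. Myl4 and Myl7 encode the atrial light chains of myosin. Pearson's r with Sln was 0.999, 0.983, 0.942 and 0.904, and Spearman's rho 0.927, 0.933, 0.675 and 0.903. Since the libraries fall into those with and those without these transcripts, the coefficients describe that split, and depth and the rest of the library are shared by both genes. Myl7 was at 134.2 and 57.48 CPM in wildtype replicates 3 and 4 and at 197.2 CPM in labelled replicate 4, and at most 0.604 CPM elsewhere. Myl4 was at 167.7, 110.8 and 334.4 CPM in the same libraries and at most 2.96 CPM elsewhere. Skeletal muscle markers (8 genes), from another tissue that contains Sln, summed to 0.781 to 3.44 CPM per library.

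**Figure D2:**
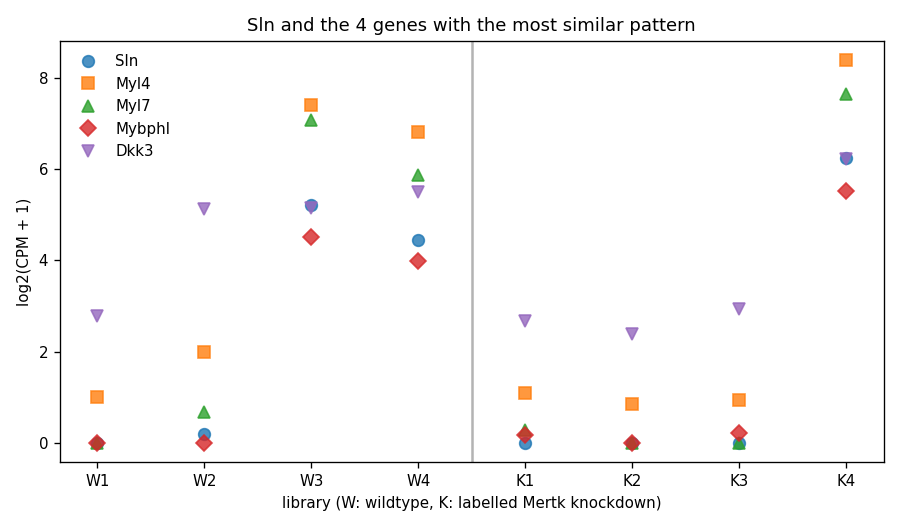
Level of Sln and of the 4 genes most like it, as log2(CPM + 1), in each of the 8 libraries. Sln, Myl4, Myl7 and Mybphl are high in W3, W4 and K4 (Sln at 36.28, 20.91 and 74.04 CPM) and low in the other libraries (Myl4 at most 2.96 CPM, the rest below 1 CPM), while Dkk3 is also high in W2.

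Release from the store depends on Ryr2, the ryanodine receptor (chr13:11553102-12106945, minus strand). It was at 972.5, 947.9, 1163 and 978.1 CPM in wildtype and 1432, 1316, 902.4 and 1296 CPM in the labelled group. Labelled replicates 1, 2 and 4 lay above all wildtype libraries, and labelled replicate 3 was the lowest of all 8. On the log2 scale the difference was 0.28 (95% interval -0.05 to 0.61, edgeR adjusted p = 0.487), and without labelled replicate 3 it was 0.41 (adjusted p = 0.261). Ryr2 has a long transcript, and labelled replicate 3 also had the lowest level of long transcripts in general. Its median deviation of genes with at least 10000 exon bases from those under 3000 was -0.18 on the log2 scale, against -0.16 in wildtype replicate 4 and 0.01 to 0.10 in the other libraries. The part of this in the Ryr2 values was not tested.

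Trdn encodes triadin, which anchors calsequestrin to the ryanodine receptor (chr10:33080554-33476709, plus strand). It ranged from 167.1 to 189.8 CPM in wildtype and from 171.2 to 220.4 CPM in the labelled group, and the groups overlapped. Its log2 fold change was 0.08 (95% interval -0.15 to 0.31, edgeR adjusted p = 0.813). Over the 8 libraries Trdn and Ryr2 had a Pearson's r of 0.77 (rho 0.74), a description of libraries whose depth and RNA are common to both genes.

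Casq2, the calcium-binding calsequestrin of the store (chr3:102086415-102146514, plus strand), varied more within wildtype than between the groups. The wildtype libraries held 560.0, 1042, 536.7 and 1016 CPM, and the labelled libraries 882.6, 829.4, 808.0 and 765.8 CPM. Wildtype replicates 1 and 3 thus lay below, and replicates 2 and 4 above, all 4 labelled libraries. The coefficient of variation was 35.3% over the wildtype and 5.92% over the labelled libraries. The log2 fold change of 0.06 (95% interval -0.44 to 0.55, edgeR adjusted p = 0.950) came from libraries on both sides. It was -0.09 without wildtype replicate 3 and 0.23 without wildtype replicate 2. Among the 5 libraries with hepatocyte transcripts, where the lone wildtype library is replicate 1, it was 0.56 (adjusted p = 0.282), and with the hepatocyte score as a covariate 0.65 (adjusted p = 0.445).

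Hrc, the histidine-rich calcium-binding protein of the store (chr7:45335290-45338974, plus strand), was at 695.2, 388.8, 724.5 and 634.8 CPM in wildtype and 748.0, 841.8, 706.7 and 724.7 CPM in the labelled group. Wildtype replicate 2 was far below the rest, and the groups overlapped by wildtype replicate 3 alone. By edgeR the log2 fold change was 0.31 (95% interval -0.09 to 0.70, edgeR adjusted p = 0.541), and 0.15 without wildtype replicate 2. Hrc followed Atp2a2 over the 8 libraries (Pearson's r 0.86, rho 0.88, and r 0.80 without wildtype replicate 2). With Pln its r was 0.89 (rho 0.26), and 0.36 without wildtype replicate 2. These coefficients are a description of libraries whose depth and RNA are common to the genes.

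Jph2 encodes junctophilin 2, which holds the store close to the surface membrane (chr2:163336242-163397993, minus strand). It ranged from 358.4 to 427.6 CPM in wildtype and from 355.7 to 493.1 CPM in the labelled group. Labelled replicates 1, 2 and 3 lay above all wildtype libraries and labelled replicate 4 below them all. Fitted, the log2 fold change was 0.18 (95% interval -0.09 to 0.44, edgeR adjusted p = 0.612).

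At the surface membrane, Cacna1c, the pore-forming subunit of the L-type channel (chr6:118587240-119196890, minus strand), stood at 271.6 ± 29.0 CPM in wildtype against 271.2 ± 12.8 CPM under the label (SD over 4 libraries each). Its log2 fold change was 0.00 with an SE of 0.10 (edgeR adjusted p = 0.997; 95% interval -0.23 to 0.23), and the 95% interval of the fold was 0.853 to 1.17. Slc8a1, the sodium-calcium exchanger (chr17:81373105-81738377, minus strand), was at 220.6, 337.8, 229.5 and 223.4 CPM in wildtype and 284.7, 285.7, 241.9 and 249.1 CPM in the labelled group. All 4 labelled libraries lay above wildtype replicates 1, 3 and 4 and below wildtype replicate 2. On the log2 scale the difference was 0.07 (SE 0.15, edgeR adjusted p = 0.902), and without wildtype replicate 2 it was 0.25 (adjusted p = 0.376).

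**Figure D3:**
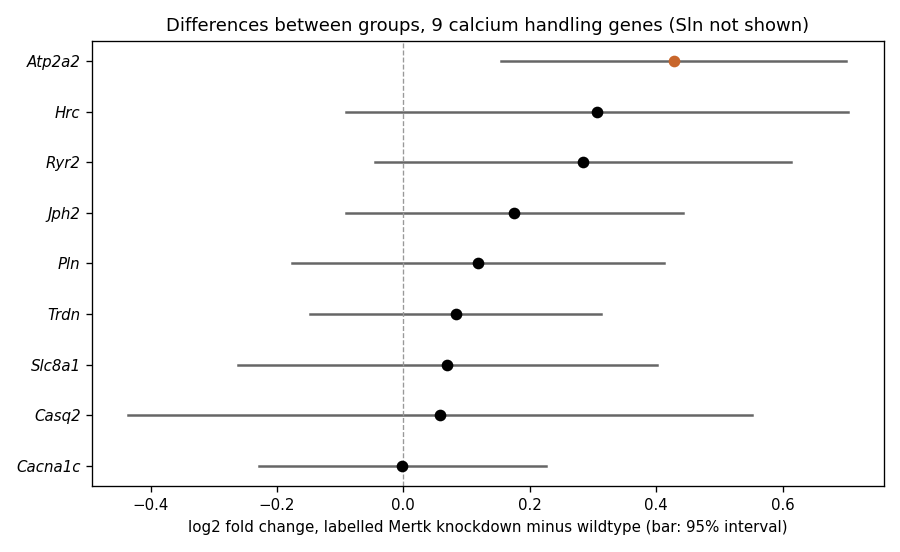
Log2 fold change (labelled Mertk knockdown minus wildtype, horizontal axis) of 9 genes with its 95% interval from edgeR. The interval lies above 0 for Atp2a2 alone (0.15 to 0.70; orange marks groups that do not overlap). Sln is not drawn because its interval ran from -5.88 to 6.62.

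Wildtype replicate 2 was the library that stood apart most often. Among the 9 genes other than Sln it had the lowest of all 8 values for 4 (Atp2a2, Pln, Hrc and Trdn) and the highest for 2 (Casq2 and Slc8a1). In the same library the natriuretic peptide genes Nppa and Nppb, which rise with load on the heart, were at 2308 and 293.0 CPM, against 306 to 854 CPM and 66.2 to 93.1 CPM in the other wildtype libraries. Its fibroblast markers (6 genes) summed to 1643 CPM, against 541 to 1031 CPM in the other wildtype libraries. The part of these signals in its calcium gene values was not tested.

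Levels of different genes can be compared only per length, for which the deposited FPKM (fragments for each kilobase of a gene, relative to the library total) was used. The lengths implied by counts and FPKM were close to all annotated exons of a gene together. These were 28790 bases for Ryr2 and 18807 for Slc8a1, against 6081 for Atp2a2. The order of genes and the size of the ratios depend on these lengths, and which transcripts were present was not tested. Averaged over the 8 libraries, Pln (1407 FPKM) and Atp2a2 (1324 FPKM) stood first, then Casq2 (268.8) and Hrc (241.4), Jph2 (87.4), Ryr2 (35.5), Trdn (18.1), Slc8a1 (12.5), Sln (11.3) and Cacna1c (11.2). The order held in all 8 libraries from Atp2a2 to Casq2, from Hrc to Jph2, from Jph2 to Ryr2 and from Ryr2 to Trdn. It did not hold for Pln over Atp2a2, which was seen in 6 of 8 libraries, nor for Casq2 over Hrc, seen in 4 of 8. Trdn was above Slc8a1 in 7 of 8 libraries, Slc8a1 above Sln in 5 and Sln above Cacna1c in 3, and the place of Sln rests on the libraries with atrial transcripts, since it ran from 0 to 52.3 FPKM. The exceptions to Pln over Atp2a2 were labelled replicates 1 and 2, where Atp2a2 was above Pln.

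Since the inhibitor acts on the pump, their ratio was formed within each library, where no scaling between libraries enters. Pln was 130.0%, 113.0%, 130.2% and 104.5% of Atp2a2 in wildtype and 92.6%, 84.0%, 108.7% and 104.2% in the labelled group. The ranges overlapped by labelled replicate 3, and 3 of the 4 labelled libraries lay below all wildtype libraries. The log2 ratio differed by -0.30, a fold of 0.815 (exact permutation test, two-sided, p = 0.0571, and 0.0857 adjusted over the 3 ratios tested, where 4 libraries against 4 can give no p under 0.0286).

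The ratio of the exchanger to the pump was 0.904%, 1.75%, 0.935% and 0.883% in wildtype and 0.890%, 0.805%, 0.841% and 0.842% in the labelled group. Wildtype replicate 2 lay far above the other 7 libraries. The log2 ratio differed by -0.34 (exact permutation test, two-sided, p = 0.0571, adjusted p = 0.0857), and by -0.10 without wildtype replicate 2 (exact p = 0.114). Ryr2 relative to Atp2a2 gave 2.86% ± 0.346 for wildtype against 2.57% ± 0.410 for the label (SD, n = 4; exact permutation test, two-sided, p = 0.343). None of the 3 ratios passed the threshold. All 3 share Atp2a2, so they are not independent of each other.

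**Figure D4:**
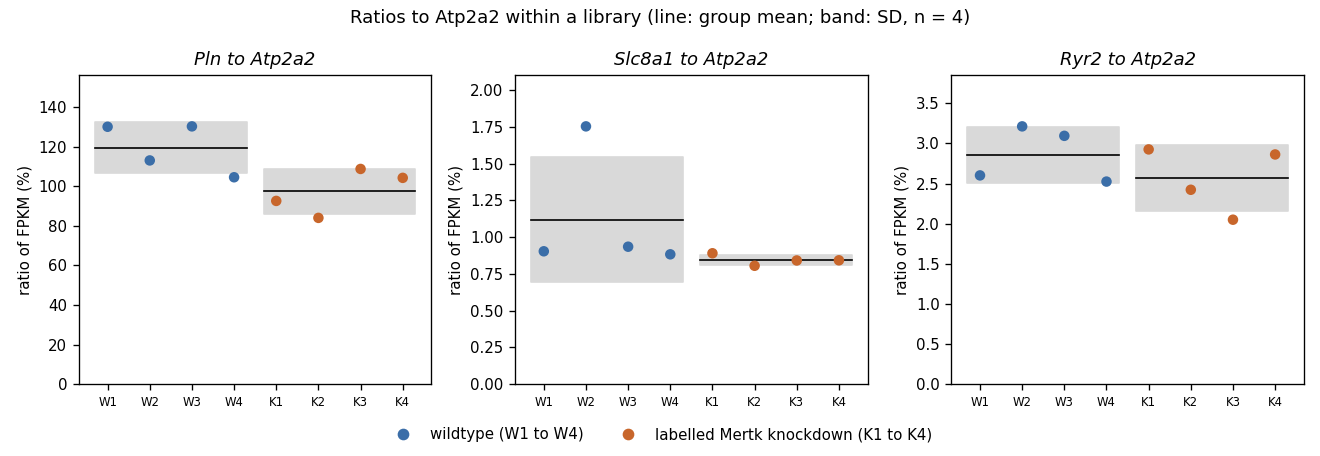
Ratio of Pln, Slc8a1 and Ryr2 to Atp2a2 (percent, from FPKM, axes from 0) in each library, with group means (lines) and SD (bands, n = 4). In the Pln panel 3 of the 4 labelled libraries lie below the lowest wildtype library (104.5%), and in the Slc8a1 panel W2 stands alone at 1.75%.

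The genes whose log2 CPM was most like that of Atp2a2 over the 8 libraries were Mfn1, Mrpl4, Dele1 and Rangrf. Mfn1 encodes a protein of mitochondrial fusion and Mrpl4 one of the mitochondrial ribosome. Pearson's r was 0.982, 0.982, 0.979 and 0.977 (rho 0.929, 0.976, 0.929 and 0.952), and without wildtype replicate 2 and labelled replicate 2, the libraries farthest from the median of Atp2a2, r was 0.93 to 0.98. The coefficients are a description, since depth and RNA of a library are common to all genes in it. These 4 were chosen for following Atp2a2, whose groups are apart, so their own group differences add nothing to it.

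The rest of the calcium pathway was taken from 7 lists by role, with 80 genes of which 77 were in the table and all 77 were tested. None of the 77 was called in either direction by edgeR, against 0.647% of all tested genes. An unadjusted p under 0.05 was seen for 7, 4 of them higher and 3 lower, against 12.4% of all tested genes. DESeq2 called 3, namely Asph, Camk2d and Micu2, against 3.73% of the genes to which it gave an adjusted p. These counts are near or below what those shares give for 77 genes, so the named calls are not particular to the calcium genes. The log2 fold change was above 0 for 37 and below 0 for 40, with a median of 0.00. The groups did not overlap for 4 of the 77 genes, against 8.07% of all tested genes. Those 4 were Asph, Camk2d and Mcur1, with higher values in the labelled group, and Micu2 with lower values.

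Among the 17 genes of release channels, their partners and junction proteins the median log2 fold change was 0.08. Asph, the gene that also encodes junctin, a partner of triadin at the ryanodine receptor, was at 136.5, 142.2, 146.9 and 137.6 CPM in wildtype and 192.7, 171.3, 172.4 and 174.8 CPM in the labelled group. Its groups were well apart, and the log2 fold change was 0.34 with an SE of 0.08 (edgeR adjusted p = 0.132, DESeq2 adjusted p = 0.0118). The count of the gene does not tell junctin from its other products. S100a1, which modulates the pump and the receptor, had 0.21 (edgeR adjusted p = 0.458) and Itpr1, an inositol trisphosphate receptor, 0.20 (0.430). Ryr1, the skeletal muscle isoform, was at 0.258 to 2.14 CPM, with 1.09 (0.450).

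Among the 22 calmodulins, kinases, phosphatases and genes of cyclic AMP control the median was 0.01. Camk2d, the main cardiac isoform of the kinase CaMKII, which phosphorylates phospholamban and the ryanodine receptor, was at 100.2, 107.9, 106.1 and 90.6 CPM in wildtype and 133.0, 143.8, 125.8 and 143.6 CPM in the labelled group. Its groups did not overlap, and it had the smallest p of all calcium genes here, and the log2 fold change was 0.43 with an SE of 0.09 (edgeR adjusted p = 0.0838, DESeq2 adjusted p = 0.00290). Its isoform Camk2b had -0.32 (edgeR adjusted p = 0.388), the beta-adrenergic receptor Adrb1 0.32 (0.467) and the calcineurin subunit Ppp3cb 0.17 (0.482).

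Mitochondrial calcium uptake (9 genes, median 0.04) held Micu2, a gatekeeper of the uniporter, at 101.1, 104.8, 96.2 and 99.2 CPM in wildtype and 73.4, 85.2, 83.7 and 82.6 CPM in the labelled group. All labelled libraries lay below all wildtype libraries, and the log2 fold change was -0.30 with an SE of 0.08 (edgeR adjusted p = 0.169, DESeq2 adjusted p = 0.0434). Letm1, an ion exchanger of the inner mitochondrial membrane, had 0.44 (edgeR adjusted p = 0.233), Mcur1 0.15 (0.496) and Mcub, an inhibitory subunit of the uniporter, -0.56 (0.558) at 0.574 to 2.26 CPM.

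In the other 4 lists no gene had groups apart, against 8.07% of all tested genes. The 12 channel subunits and their inhibitors had a median of -0.20, with Rem1, a small GTPase that inhibits the L-type channel, at 0.55 (edgeR adjusted p = 0.329), Cacna1d at -0.74 (0.450), Cacna2d2 at -1.26 (0.554) and Rrad at 0.81 (0.571). Exchangers and surface pumps (8 genes, median 0.02) held Slc8a2 at -0.40, Slc8a3 at -0.77 and Atp2b4 at 0.15, with edgeR adjusted p of 0.543 to 0.657. The other reticulum pumps Atp2a1 and Atp2a3 had 0.60 and -0.14, and Strit1, which encodes the pump-activating micropeptide DWORF, -0.27 at 0.573 to 3.71 CPM. Store-operated entry (6 genes, median -0.05) held Saraf, a regulator of that entry, at -0.44 (edgeR adjusted p = 0.346), the sensor Stim1 at -0.18, Trpc1 at -0.08 and Orai3 at 0.03.

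**Figure D5:**
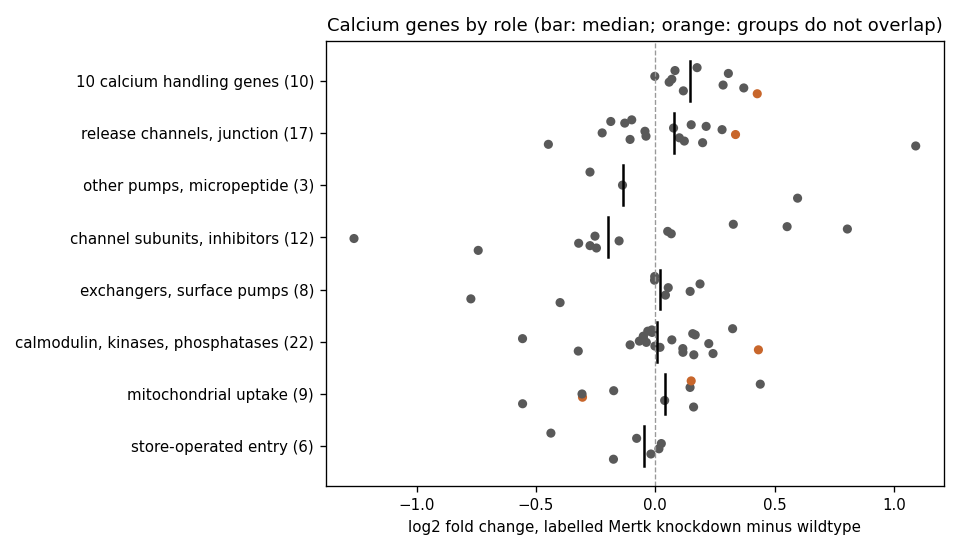
Log2 fold change (horizontal axis, labelled Mertk knockdown minus wildtype) of the 10 genes and of the 77 other calcium genes by role, with 1 point a gene, the list median as a bar and genes whose groups do not overlap in orange. The median is 0.15 for the 10 genes (0.12 without Sln) and between -0.20 and 0.08 for the other lists. Cardiomyocyte markers, not drawn, had a median of 0.17. The orange points are Atp2a2, Asph, Camk2d, Mcur1 and Micu2.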

How the data were processed

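The deposited table gives whole-number counts and FPKM for each gene and library, per the file headers. Cutadapt 1.9, HISAT2 2.2.1, StringTie 2.1.6, DESeq2, edgeR and build mm10 are named in the submitters' processing notes, without role or order. Coordinates are those of the deposited table. The deposited counts were tested with edgeR 4.0.16 in R 4.3.3 (TMM, filterByExpr, glmQLFit with robust = TRUE, glmQLFTest, two-sided, no covariate, all 8 libraries). Benjamini-Hochberg adjustment ran over all 17787 tested genes. The script was tested on simulated data. DESeq2 1.42.0 and limma 3.58.1 on log2(FPKM + 1) were alternatives, beside other scalings, filters, covariates and libraries left out. The SE is the log2 fold change divided by the square root of F. Named genes were the 10 members, the 4 genes of smallest p in each pathway list, and the 4 genes most correlated with Atp2a2 and with Sln. One gene of the pathway lists that this rule names is not reported here. Members and lists were chosen with earlier results of these data known. Replicates differed by more than sampling noise (chi-square of 33.0 to 168.9 for each degree of freedom). Of the pathway genes, 3 (Mrln, Erln and Arln) were not analysed here.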

Additional observations from a re-analysis of the deposited data

Results flagged for a closer look

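In groups of 4 libraries, the gap between an extreme library and its neighbour was compared with the whole range of the group (Dixon's criterion for 4 values). It was exceeded in 14 of 98 groups examined, where chance gives about 1 in 20 for independent groups. These groups were not independent. Myl4, Myl7, Mybphl and Dkk3 were chosen for following Sln, and the ratios are formed from genes that were also examined. The count of 14 therefore cannot be weighed against that share. Wildtype replicate 2 stood apart for Atp2a2 at 6230 CPM (others 7893 to 8181 CPM), for Slc8a1 at 337.8 CPM (others 220.6 to 229.5 CPM), for Mcub at 2.26 CPM (others 1.44 to 1.56 CPM) and for the ratio of Slc8a1 to Atp2a2 at 1.75% (others 0.883% to 0.935%). Wildtype replicate 1 stood apart for Rem1 at 3.63 CPM (others 2.09 to 2.35 CPM). Wildtype replicate 3 stood apart for Ryr2 at 1163 CPM and wildtype replicate 4 for Itpr1 at 38.6 CPM. Labelled replicate 1 stood apart for Asph at 192.7 CPM. Labelled replicate 4 stood apart for Sln at 74.04 CPM and with it for Myl4 at 334.4 CPM, Myl7 at 197.2 CPM, Mybphl at 44.96 CPM and Dkk3 at 73.75 CPM, and also for Cacna1d at 3.35 CPM (others 1.48 to 1.77 CPM).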

How the results depend on the processing

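The count of the 10 calcium handling genes called was 0 in every alternative but DESeq2, which called 1, and that of the 77 other calcium genes was 0 in every alternative but DESeq2, which called 3. Over all genes edgeR called 115, and the count moved to 604 with DESeq2, 57 with log2(FPKM + 1), 21 with log2(FPKM + 1) and no filter, 70 with log2(FPKM + 0.1), 59 with the atrial score and 12 with the hepatocyte score as a covariate, and to 44 (without labelled replicate 3) to 265 (without wildtype replicate 1, 165 of them higher) when 1 library was left out. Without each other library it was 48 to 84. Other scalings (RLE and upper quartile factors) left 49 higher and 62 to 65 lower, against 49 and 66. Chosen after seeing the data, the sets without the 3 libraries with atrial transcripts and of the 5 with hepatocyte transcripts gave 6 and 42. With the replicate number as a block, 24 genes were called, and 0 of the 10 and 0 of the 77. The numbers were not taken as a pairing, since same-numbered libraries correlated in their deviations by -0.01 to 0.18, and 3 of 8 libraries correlated best with their own number. The difference in the log2 ratio of Pln to Atp2a2 ran from -0.36 to -0.23, that of Slc8a1 to Atp2a2 from -0.43 to -0.10 and that of Ryr2 to Atp2a2 from -0.23 to -0.06 with 1 library left out. That of Slc8a1 to Atp2a2 was -0.35 with FPKM + 1 (exact p = 0.0286), the cause was not tested. With 3 libraries against 4 no p under 0.0571 can be reached. Of 1010 values of single genes under alternatives, 4 passed the threshold where the main value did not, all with DESeq2 (Atp2a2, Asph, Camk2d and Micu2). In 74 values of 18 genes the sign was opposite and no call was made in either fit, 33 of them for Sln and the 4 genes most like it. Sln could not be fitted without the atrial libraries, where it did not pass the filter. The 9 genes other than Sln had at least 10929 counts in every library, and Sln had 0 counts in 4 libraries.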
